A study of Mus musculus with 2 samples.

Results

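Collecting duct and ureteric transcription factors were read out in mIMCD3 cells as a picture of the line's identity. The factors were the zinc finger proteins Gata2 and Gata3, the AP-2 proteins Tfap2a and Tfap2b, the paired box proteins Pax2 and Pax8, the homeobox proteins Lhx1 and Emx1, the Grainyhead-like protein Grhl2 and the ETS protein Elf3. They were chosen by name, and every non-control probe carrying one of the 10 gene names was taken, which gave 15 of the 55681 probes of the array, for 10 of its 34650 distinct gene names. mIMCD3 is an immortalised epithelial line known to come from the inner medullary collecting duct of the mouse. Total RNA of cells given the hormone FGF23 at 10 ng/mL for 4 h was compared with that of unstimulated cells of the same line, both grown in serum-containing medium. Each of 2 two-colour Agilent arrays held both RNAs, with FGF23 RNA in Cy3 on array 1 and in Cy5 on array 2, per the labels. The study asked what FGF23 does in tubule cells besides mineral handling. Nothing in the labels ties the arrays to separate cultures, so the p-values cover the spread between these arrays alone, which may be technical. That spread can also hold dye effects of single probes, because the dyes were swapped and no dye term was fitted.

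The collecting duct grows from the nephric duct by way of the ureteric bud. Pax2 and Pax8 act together to specify the nephric duct, and Lhx1 and Gata3 are switched on in it and are needed for the duct to extend and bud. Grhl2 and Elf3 are general epithelial regulators, and Gata2 is known to sustain the water channel gene Aqp2 in the adult collecting duct. In bulk RNA, fewer cells that express a gene and less RNA per cell cannot be told apart.

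The line carried signal well above background for 8 of the 10 factors, and for Tfap2b and Emx1 in no channel. The scanner software did flag the Tfap2b and Emx1 probes as significantly above local background in both channels of array 2, but in neither of array 1. A probe was called detected, and kept for testing, where the scanner software flagged it as well above background on both arrays in at least 1 condition. By that rule 12 of the 15 probes were detected, against 48.4% of all probes on the array. Of these, 11 were well above background in every channel, namely the detected probes other than Lhx1 probe A_55_P2231244. The 3 probes outside the filter were those of Tfap2b and Emx1 and 1 of the 3 probes of Pax2. By gene, 8 of the 10 factors had a detected probe, against 55.4% of all gene names. Gata2, Pax2 and Lhx1 were near the floor, as their kept probes reached at most 1.95, 3.46 and 3.20 times the local background. None of the 15 probes was saturated or an outlier. After FGF23, 0 of the 12 kept probes passed limma's test with Benjamini-Hochberg adjustment, where 0.0853% of all 26959 kept probes did. By direction the background was 0.0816% higher with FGF23 and 0.00371% lower. Each of the 12 had an adjusted p of 1. At an unadjusted p under 0.05 there were 3 of 12, all with positive ratios, against 4.01% of all kept probes. Those 3 were both probes of Grhl2 and 1 of the 2 probes of Lhx1.

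Brightness is given below as the mean signal of a spot in scanner units, background included. The local background around these spots ran from 33 to 44. Negative control spots, which match no mouse transcript, had a 99th percentile of 51.8 and 50.4 in Cy3 and 66.3 and 74.2 in Cy5 on arrays 1 and 2. Cy5 was generally brighter than Cy3, so values of both conditions are set side by side within a dye, where they come from different arrays before any normalization. Probes differ in how well they bind, so no probe's brightness is ranked against another's.

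**Figure D1:**
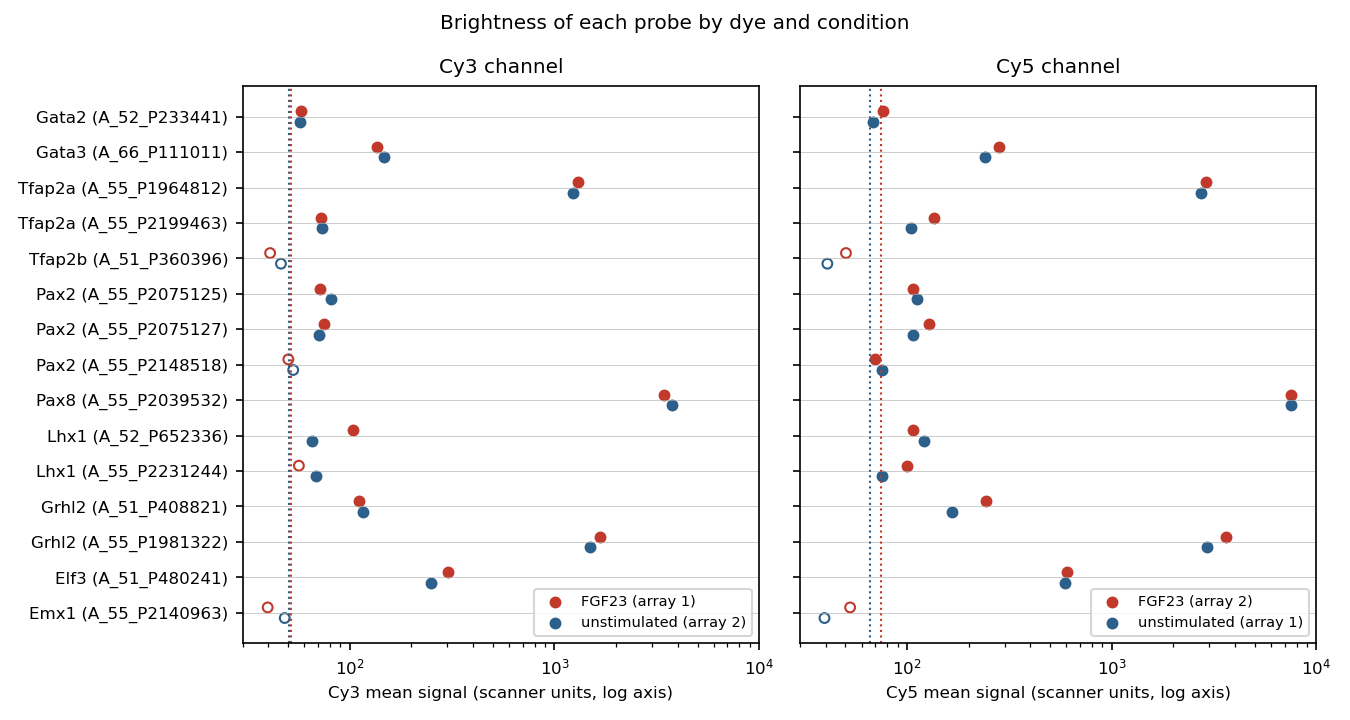
Mean signal of each of the 15 probes (log axis, scanner units) in the Cy3 and the Cy5 channel, with FGF23 in red and unstimulated in blue. Filled points were flagged well above background and open points were not, and dotted lines are the 99th percentile of negative control spots of the channel in the same colour. The Tfap2b and Emx1 probes lie left of the lines in every channel, and red and blue points of most other probes lie close together.

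Among the paired box factors, Pax8, which marks the nephric lineage and stays on in adult tubules, had a single probe with strong signal. In Cy3 the Pax8 probe read 3427 with FGF23 and 3748 without. In Cy5 it read 7551 with FGF23 and 7556 without. Its signal was 83.6 to 199 times the local background over the 4 channels. The normalized level was 12.31 ± 0.02 on the log2 scale with FGF23 and 12.39 ± 0.04 without (SD, n = 2 arrays). The levels of the conditions did not overlap, but they lay close together. The log2 ratio of FGF23 over unstimulated was -0.04 on array 1 and -0.12 on array 2, with a mean of -0.08 ± 0.06 and a 95% interval in limma from -0.26 to 0.11. The probe lies on chromosome 2 from 24276147 to 24276206 on the minus strand (mm9).

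Pax2, the partner of Pax8 in the early duct, was dim at all 3 of its probes, and they did not move in 1 direction. They lie along chromosome 19 on the plus strand (mm9), at 44835420 to 44835479, 44871124 to 44871183 and 44909895 to 44909954, so that the outer pair is 74.4 kb apart. The first 30 of the 60 bases of each probe are shown, since the probes read stretches of the gene far from each other.
Pax2 A_55_P2148518: acccgacgtggtgaggcagcgcatcgtgga
Pax2 A_55_P2075125: tatacactgatcctgcccacattagaggag
Pax2 A_55_P2075127: ggcaacccatacagccatccccagtacacc
Probe A_55_P2075125 read 71.2 with FGF23 and 81.3 without in Cy3, and 106.5 and 111.6 in Cy5. Probe A_55_P2075127 read 74.6 and 70.4 in Cy3, and 128.0 and 107.0 in Cy5. Both were well above background in every channel. The first had log2 ratios of -0.01 and -0.21 (mean -0.11 ± 0.14, interval -0.30 to 0.08), and the second had 0.05 and 0.17 (mean 0.11 ± 0.08, interval -0.08 to 0.30). Their levels did not overlap between conditions, in opposite directions, so these probes give no single direction for the gene. Probe A_55_P2148518, with a GC content of 70%, was well above background in Cy5 on both arrays (70.0 with FGF23 and 75.1 without) and in Cy3 on neither (50.1 and 52.9). Each condition was thus detected on 1 of 2 arrays, which followed the dye, and the probe was not tested.

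Gata3, a factor downstream of Pax2 and Pax8 that controls the receptor gene Ret and stays on in the collecting duct, was detected in every channel. Its probe, on chromosome 2 from 9779551 to 9779610 on the minus strand (mm9), read 135.6 with FGF23 and 146.5 without in Cy3. In Cy5 it read 281.9 and 239.5. The normalized log2 levels were 7.76 ± 0.09 with FGF23 and 7.73 ± 0.06 without (SD, n = 2 arrays), and they overlapped. The log2 ratio was 0.01 on array 1 and 0.04 on array 2, with a mean of 0.02 ± 0.03 and an interval from -0.16 to 0.21. Gata2, its close relative, was only just above background. Its probe, on chromosome 6 from 88156362 to 88156421 on the plus strand (mm9), read 57.5 and 57.2 in Cy3 and 76.1 and 68.3 in Cy5, with FGF23 first. That is 1.43 to 1.95 times the local background, although all 4 channels were flagged well above background and exceeded the negative controls' 99th percentile. The log2 ratios of Gata2 had opposite signs, 0.20 and -0.10 (mean 0.05 ± 0.21, interval -0.15 to 0.25).

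Of the AP-2 pair, Tfap2a was detected and Tfap2b was not. Tfap2a probe A_55_P1964812, on chromosome 13 from 40811044 to 40811103 on the minus strand (mm9), read 1298 with FGF23 and 1228 without in Cy3. In Cy5 it read 2876 and 2736. Its log2 ratios were -0.02 and 0.13 (mean 0.06 ± 0.11, interval -0.13 to 0.24), and the levels overlapped. Tfap2a probe A_55_P2199463 lies 17.9 kb away, at 40829040 to 40829099, which is upstream on this strand. It read 72.7 and 73.1 in Cy3, and 135.9 and 104.4 in Cy5, with log2 ratios of 0.07 and 0.16 (mean 0.11 ± 0.06, interval -0.07 to 0.30). Both Tfap2a probes thus detected RNA, and neither passed the test. The Tfap2b probe, on chromosome 1 from 19228555 to 19228614 on the plus strand (mm9), read 40.8 and 46.1 in Cy3, and 50.3 and 40.8 in Cy5. Each of these lay below the negative controls' 99th percentile of its channel. Tfap2b is known for its role in distal tubule development. The first 30 of 60 bases of the 3 probes show which stretches these readings stand for.
Tfap2a A_55_P1964812: ctatgcctgtcaatgtatcatagtcctttg
Tfap2a A_55_P2199463: acgccgatccatgaaaatgctttggaaact
Tfap2b A_51_P360396: tcttctgttctttatagacaagctgttatg

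Lhx1, a LIM homeobox factor of the nephric duct, had the largest mean ratio of the 12 kept probes at 1 of its probes. That ratio was larger on array 1. Probe A_52_P652336, on chromosome 11 from 84331888 to 84331947 on the minus strand (mm9), read 103.4 with FGF23 and 65.7 without in Cy3. In Cy5 it read 106.6 with FGF23 and 121.5 without. Its log2 ratio was 0.41 on array 1 and 0.04 on array 2, with a mean of 0.23 ± 0.26 and an interval from 0.02 to 0.43. Read as Cy5 over Cy3, the mean log2 ratio of both arrays was -0.18. As the dyes were swapped, a gap between the arrays and a dye effect of the probe cannot be told apart. The unadjusted p in limma's fit was 0.034 and the adjusted p was 1, and the levels overlapped (7.03 ± 0.40 with FGF23, 6.80 ± 0.14 without, SD, n = 2 arrays). Probe A_55_P2231244 lies 3.49 kb upstream and its 60 bases are spread over 153 bases of the genome, from 84335442 to 84335594. It read 56.4 with FGF23 and 68.4 without in Cy3, and 100.1 and 75.4 in Cy5. It was not well above background with FGF23 on array 1, and was kept through the unstimulated channels. Its log2 ratios were 0.02 and -0.08 (mean -0.03 ± 0.07, interval -0.22 to 0.15). The Lhx1 probes, whose first 30 bases follow, therefore differed in sign, and neither passed the test.
Lhx1 A_52_P652336: tatgtaaaaaggtgttgtttacacgaggca
Lhx1 A_55_P2231244: agtgtcgccaaagagaacagcctccactcg

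Grhl2, which sustains E-cadherin, claudins and the epithelial barrier, was the 1 factor with several kept probes whose ratios were above 0 at each probe on both arrays. Grhl2 probe A_55_P1981322, on chromosome 15 from 37293139 to 37293198 on the plus strand (mm9), read 1669 with FGF23 and 1496 without in Cy3. In Cy5 it read 3605 with FGF23 and 2916 without. Its normalized log2 levels were 11.27 ± 0.01 with FGF23 and 11.05 ± 0.05 without (SD, n = 2 arrays) and did not overlap. The log2 ratio was 0.26 on array 1 and 0.17 on array 2, a mean of 0.21 ± 0.06 or 1.16-fold, with an interval from 0.03 to 0.40 and an unadjusted p of 0.027 in limma's fit. Probe A_51_P408821, 53.7 kb upstream at 37239426 to 37239485, read 110.4 and 116.3 in Cy3, and 244.0 and 165.2 in Cy5, with FGF23 first. It had log2 ratios of 0.20 and 0.17 (mean 0.18 ± 0.02, 1.14-fold), an interval from 0.00013 to 0.37 and an unadjusted p of 0.050, and its levels overlapped. Neither Grhl2 probe passed over all probes tested, and both sample the RNA of 1 gene. Their first 30 bases follow, to show that the readings come from separate stretches.
Grhl2 A_51_P408821: acaaggagagcttcaacaccatcgggaaca
Grhl2 A_55_P1981322: ccctttctgaaggacaagcaggggagactc

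Elf3, an epithelium-specific ETS factor, was detected in every channel. Its probe, on chromosome 1 from 137150328 to 137150387 on the minus strand (mm9), read 303.4 with FGF23 and 248.6 without in Cy3. The Cy5 readings were 605.0 and 588.0. Its log2 ratios were 0.02 and 0.27 (mean 0.15 ± 0.17, interval -0.05 to 0.34), so the ratio was larger on array 2, and the levels overlapped. Read as Cy5 over Cy3 the mean was 0.12, and here too array and dye cannot be told apart. Emx1, a homeobox factor best known from the forebrain, was not detected. Its probe, on chromosome 6 from 85154062 to 85154121 on the plus strand (mm9), read 39.7 with FGF23 and 48.1 without in Cy3. The Cy5 readings were 52.7 and 39.5. All 4 readings were below the negative controls' 99th percentile. The probe lay outside the filter, so its ratio was not tested and nothing is read from it.

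**Figure D2:**
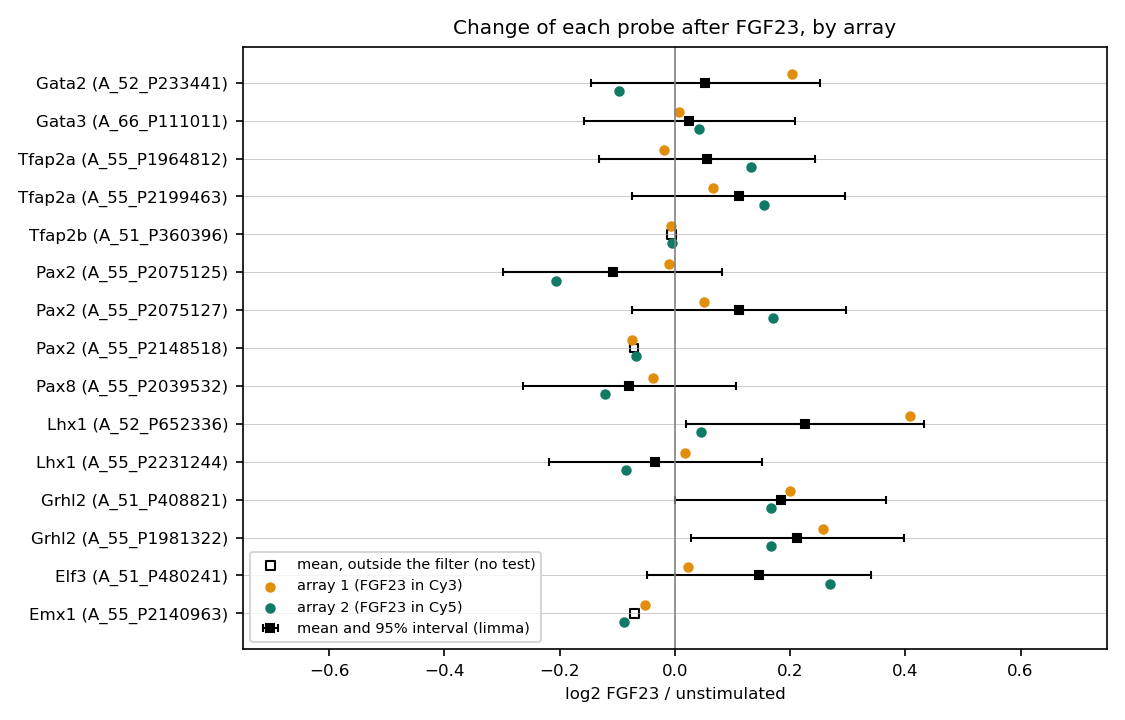
Log2 ratio of FGF23 over unstimulated for each probe, on array 1 (orange), on array 2 (green) and as the mean of both (black squares) with limma's 95% interval. Open squares are the 3 probes outside the filter, which were not tested. Means of the kept probes lie between -0.11 and 0.23, and the intervals of 9 of the 12 include 0.

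Across the 12 kept probes the ratios were small and leaned above 0. Their median was 0.083 on the log2 scale for the mean of both arrays, against -0.0027 over all kept probes. Array 1 alone gave a member median of 0.037, and array 2 alone gave 0.088. On both arrays 7 of 12 probes were above 0 and 2 were below, where 23.4% and 23.5% of all kept probes were. The other 3 had opposite signs. The levels of the conditions did not overlap in 3 probes with FGF23 higher and in 2 with FGF23 lower, whereas 32.7% of all kept probes did not overlap in either direction. The SD of the log2 ratios over all kept probes was 0.143 on array 1 and 0.131 on array 2. The highest upper interval bound, that of Lhx1 probe A_52_P652336, was 0.43 and the lowest lower bound, that of Pax2 probe A_55_P2075125, was -0.30. Several probes share a gene, and these counts describe the probes without testing them as a group.

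Relatives of the factors from the same families were also examined. Of 29 paralogues with a probe, 14 were detected, at 17 of their 42 probes. Over the array, 55.4% of gene names and 48.4% of probes were detected. Normalized log2 levels with FGF23, at the brightest kept probe, ran from 6.73 for Lhx4 to 11.04 for Ehf. The undetected Tfap2b had 6.04. In the GATA family Gata5 and Gata6 were detected beside Gata2 and Gata3, and Gata1 and Gata4 were not. Tfap2a was the 1 detected gene of the 5 AP-2 genes. Pax3 and Pax9 were detected beside Pax2 and Pax8, and Pax1, Pax4, Pax5, Pax6 and Pax7 were not. All 3 Grainyhead-like genes were detected, as were 5 of 6 ELF and EHF genes, with Elf5 the exception. Emx2, which the ureteric bud needs to form a kidney, was detected while Emx1 was not. In the LIM homeobox family Lhx2, Lhx4 and Lhx6 were detected beside Lhx1, and 4 others were not.

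**Figure D3:**
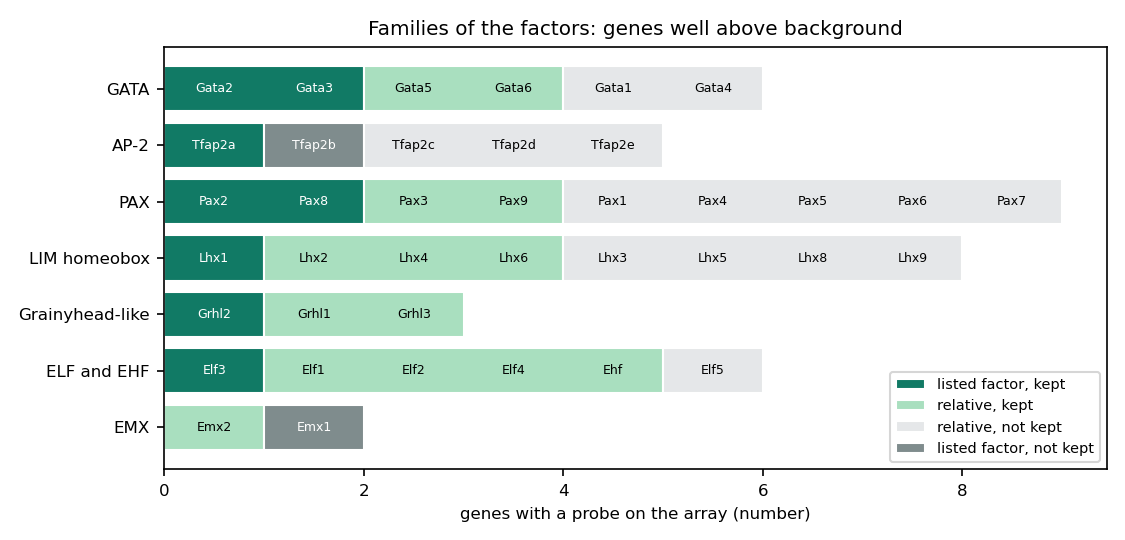
Number of genes with a probe in each transcription factor family of the 10 listed factors, coloured by whether at least 1 probe was kept, that is, well above background on both arrays in at least 1 condition. Dark green and grey are the listed factors, and pale colours their relatives. The AP-2 bar holds 1 kept gene of 5, and the Grainyhead-like bar 3 of 3.

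None of the 17 kept paralogue probes passed limma's test, with 3 at an unadjusted p under 0.05 (both Ehf probes and Grhl1), and their median log2 ratio was -0.0090. The largest ratios were those of Ehf and Grhl1, relatives of Elf3 and Grhl2 with roles in epithelia. Ehf had log2 ratios of 0.31 and 0.34 at probe A_66_P109519 (mean 0.32 ± 0.02, SD, n = 2 arrays, limma adjusted p = 0.47). Its second probe had 0.23 and 0.38 (mean 0.30 ± 0.11, limma adjusted p = 0.61). Grhl1 had 0.24 on each array (mean 0.24 ± 0.0049, limma adjusted p = 0.99975). Grhl3 had -0.10 and 0.23, so the Grainyhead-like genes did not all have the sign of Grhl2 on array 1.

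Other regulators of the ureteric bud and collecting duct were examined next. Of 22 genes, 17 were detected, where 55.4% of all gene names on the array were. Among their 20 kept probes 0 passed limma's test, with 2 at an unadjusted p under 0.05 and a median log2 ratio of 0.0065. The receptor gene Ret, a target of Gata3, Pax2 and Pax8, was not detected, and neither were Wnt9b, Wnt11, Sox8 and the intercalated cell factor Foxi1. Ovol1, an epithelial zinc finger factor, had 0.06 and 0.40 (mean 0.23 ± 0.24, SD, n = 2 arrays). Of 8 genes known as targets of the listed factors, 7 were detected, Ret being the exception, and 0 of 9 kept probes passed. Over those 9 probes the median log2 ratio was 0.090. The tight junction gene Cldn4, a Grhl2 target, had 0.18 ± 0.07 and 0.17 ± 0.09 at its probes, and the adhesion gene Epcam had 0.15 ± 0.05. The remaining Grhl2 targets of the list were lower. Cdh1 had 0.12 ± 0.16, Rab25 0.07 ± 0.07, Esrp1 0.09 ± 0.16 and -0.06 ± 0.05 at its probes, and Ovol2 -0.04 ± 0.44. Aqp2, the vasopressin-controlled water channel, was detected and had -0.08 ± 0.08.

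Transcription factors of other kidney lineages were read by the same rule. Of 10 factors of nephron progenitors, stroma and podocytes, 3 were detected (Cited1, Foxd1 and Lmx1b), and the progenitor factor Six2, the podocyte factor Wt1 and 5 others were not. Foxd1 had a log2 ratio of 0.14 ± 0.05 and Lmx1b 0.04 ± 0.18 at its brighter probe (SD, n = 2 arrays). Of 10 factors of the proximal tubule and the loop of Henle, 6 were detected, Sim1 and Irx3 among them, and the proximal factor Hnf4a was not. Sim1 had 0.22 ± 0.29 and Irx3 0.19 ± 0.08. In these lists 0 of 4 and 0 of 7 kept probes passed limma's test, with 0 and 2 at an unadjusted p under 0.05. For comparison, 55.4% of all gene names on the array were detected. A difference in detection between the lists was not tested, and detection depends on each probe as well as on the gene.

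As a check of the labelled cell type, all 6 epithelial markers (Cdh1, Epcam, Krt7, Krt8, Krt18 and Krt19) were detected. Of 8 principal cell markers, Aqp2 and Scnn1a were detected, and Aqp3, Aqp4, Avpr2, Scnn1b, Scnn1g and Hsd11b2 were not. Detected markers of other types were 3 of 6 for intercalated cells, 4 of 7 for proximal tubule, 2 of 5 for thick ascending limb and distal tubule, 1 of 5 for fibroblasts, 2 of 5 for endothelium and 3 of 5 for macrophages, of which Adgre1 had no probe under that name. Over the whole array 55.4% of gene names had a kept probe. Some markers of other types gave clear signal, with normalized log2 levels with FGF23 of 11.53 for Csf1r and 11.88 for Itgam of macrophages, 11.36 for Kdr of endothelium, and 8.23 for Lrp2 and 8.11 for Cubn of proximal tubule, each at its brightest kept probe. Among those not detected were Slc34a1, Slc12a1, Slc12a3, Pdgfra, Cdh5 and Ptprc. The part of other cell types in the signals of the listed factors was not tested. No probe of these lists passed limma's test, with 0 at an unadjusted p under 0.05.

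**Figure D4:**
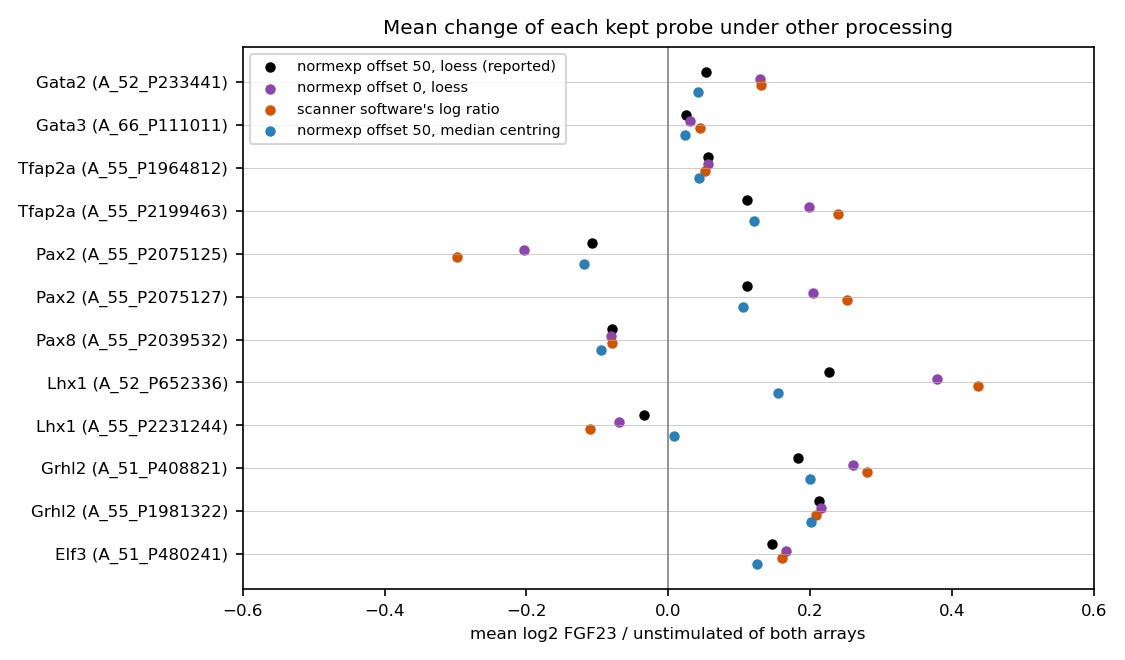
Mean log2 ratio of FGF23 over unstimulated of each of the 12 kept probes under the reported processing (black) and under 3 others (colours). In 11 of the 12 probes all 4 points lie on 1 side of 0, and those of Lhx1 A_55_P2231244 cross it. Each point is a mean of both arrays. With median centring, 9 of the 12 probes had opposite signs on the arrays, as did 92.2% of all kept probes. The medians over all kept probes were then -0.54 on array 1 and 0.52 on array 2. The points of Lhx1 A_52_P652336 run from 0.15 with median centring to 0.44 with the scanner software's log ratio.

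The size of a ratio at the dim probes differed between processings, and the cause was not tested. With the scanner software's own log ratio, the means were 0.44 at Lhx1 probe A_52_P652336, 0.25 at Pax2 probe A_55_P2075127 and -0.30 at Pax2 probe A_55_P2075125, each more than 1.5 times the reported value. The same held for Gata2 at 0.13, Tfap2a probe A_55_P2199463 at 0.24, Grhl2 probe A_51_P408821 at 0.28, Lhx1 probe A_55_P2231244 at -0.11 and Gata3 at 0.05. At the brighter probes the same ratio gave 0.21 for Grhl2 probe A_55_P1981322, -0.08 for Pax8 and 0.05 for Tfap2a probe A_55_P1964812, close to the reported values. No kept probe of the 10 factors passed the test under any of the 8 alternative fits. With the scanner software's log ratio and with median centring, 0 of all 26959 kept probes passed, so those fits say nothing particular to the factors.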

How the data were processed

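Total RNA of mIMCD3 cells was measured on 2 dye-swapped arrays. Per the file headers, Feature Extraction (version 11.5.1.1) made the deposited values, which were intensity in linear scanner units (spot mean and local background). The authors also deposited that software's log10 ratio, Cy5 relative to Cy3, after its own background and dye corrections. Spot flags (outlier, saturated, well above background) and mm9 probe positions came with them. Exon and UTR positions were not analysed here.

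In limma 3.58.1 under R 4.3.3, the normexp method with an offset of 50 corrected the mean signals for background. Loess then normalized each array, giving control spots no weight. The offset understates changes of dim probes. Ratios were turned to log2 FGF23 over unstimulated by the labelled dyes. Outlier and control spots were left out, spots of a probe were averaged, and each probe was tested on its own. Levels in each condition were also scaled between arrays (Aquantile). The test was lmFit and eBayes with Benjamini-Hochberg adjustment over 26959 kept probes and a threshold of 0.05. With 1 residual degree of freedom per probe, p-values and intervals rest mostly on the spread shared over all probes. No dye term was fitted. The fit was also run on simulated ratios, drawn without a dye effect and with planted changes larger than the mean changes of the factors. That run says nothing on changes as small as those reported here.

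Each array had 62976 spots, 59305 of them not controls. The share of those well above background was 48.2% to 55.2% per channel, and the number of arrays limits the precision. Both arrays had 1 scan time per the file headers.

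All 10 factors are named. Of each other list, the 2 kept genes with the largest ratio are named, except where a gene is not reported here. Families, targets of the factors and undetected genes named beyond these, and the cell type markers, were named with their values in view. The members and lists were chosen with earlier results of these data known. Probe transcripts were looked up in RefSeq's table of GRCm38.p6, where 13 of 15 had the same symbol and 2 were not listed. Those 2, Pax2 probe A_55_P2075125 and Lhx1 probe A_52_P652336, carry Ensembl identifiers, which the RefSeq lookup could not match. They had the lowest and the highest mean ratio of the kept probes.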

Additional observations from a re-analysis of the deposited data

How the results depend on the processing

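Signal near background limits dim probes such as those of Gata2, Pax2 and Lhx1, and 2 arrays limit every ratio. For the values below, the cause was not tested. Over all kept probes, 22 passed as higher and 1 as lower. Higher and lower probes numbered 6 and 1 with a normexp offset of 0, 0 and 0 with the scanner software's log ratio, 0 and 0 with median centring, and 44 and 10 with an intensity trend and robust prior. With the brightest probe per gene there were 10 and 0 among 19183 genes. Kept member probes past the test numbered 0 in each of these. At an unadjusted p under 0.05, higher member probes numbered 2 with offset 0, 1 with the scanner software's log ratio and 0 with median centring. The member median was 0.15 with offset 0 and 0.15 with the scanner software's log ratio, and 0.037 to 0.088 on single arrays. Median centring turned Lhx1 probe A_55_P2231244 from -0.03 to 0.0078. Of the other values of single probes under an alternative, 119 kept their sign and side of the threshold or stayed within 1 SD of the arrays. Many of these could not come out otherwise. A value from 1 array always lies within 1 SD of the mean of both, and a change of filter or prior repeats the same ratio. The count is therefore no measure of how firm the ratios are. Another 9 values, of the 3 probes outside the filter, moved by more than that SD. Detected probes numbered 11 to 13, and detected factors 8, under each detection rule tried.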

Other observations

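Promoter windows of the factors, from 250 bases before to 50 after the transcription start (RefSeq, GRCm38.p6), held many CpG pairs. The table had 13 windows for 9 of the 10 factors, with Grhl2 not matched. Their median was 22 CpG pairs, against 7 over all 32851 windows, and their median GC content was 61.7% against 52.7%. The undetected factors lay at both ends, with 37 CpG pairs for Emx1 and 8 for Tfap2b, and Pax8, a detected factor, had 7. These are descriptions of sequence and were not tested against the signal.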
